A study of Mus musculus with 20 samples.

Results

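The Slc22 genes encode transporters of organic ions in the plasma membrane, and 9 of them, Slc22a3, Slc22a5, Slc22a7, Slc22a23, Slc22a26, Slc22a27, Slc22a28, Slc22a29 and Slc22a30, were followed in mouse liver. The members were given by gene symbol, with earlier results of these data known, out of the 25444 loci in the count and TPM tables, and all 9 were among the 13704 genes with enough counts to be tested. RNA-seq was performed on the left lateral lobe of the liver of 20 untreated inbred mice at 20 weeks of age, with 5 mice in each of 4 groups: B6 (C57BL/6N) females, B6 males, C3 (C3H/HeN) females and C3 males. The libraries were made from ribosomal RNA-depleted total RNA and were sequenced in 3 pools. Each comparison asked whether transcript levels differed between females and males of a strain, or between the strains in one sex. Females and males were kept in separate rooms according to the methods, so an effect of sex cannot be told apart from one of the room.

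Proteins of the SLC22 family belong to the major facilitator superfamily and span the membrane many times. They carry organic cations, organic anions or zwitterions, among them drugs, bile and steroid conjugates, urate, monoamines and carnitine, and in the liver they take up or release such compounds across the hepatocyte membrane. Slc22a3 (OCT3) carries monoamines and other organic cations, Slc22a5 (OCTN2) imports carnitine for fatty acid oxidation, Slc22a7 (OAT2) carries organic anions and nucleotide-related compounds, and Slc22a23 has no well established substrate. Slc22a26 to Slc22a30 belong to a group of organic anion transporter-like genes that expanded in rodents and lie side by side. Many genes differ between the livers of male and female mice, and much of that difference is known to depend on the sex-specific pattern of growth hormone secretion and on the transcription factor STAT5.

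The 5 clustered genes lie on the minus strand of chromosome 19 in mm9, the build of the tables. Slc22a26 spans chr19:7856473-7877157, Slc22a27 chr19:7938879-8040517, Slc22a28 chr19:8136699-8206472, Slc22a29 chr19:8234658-8293329 and Slc22a30 chr19:8410113-8479595. Their coding sequences in the GENCODE vM1 transcripts fall into 2 near-identical pairs. Slc22a27 and Slc22a29 were identical at 97.3% of aligned bases, and Slc22a28 and Slc22a30 at 98.8%. Identity between the pairs was 91.5% to 92.2%, and Slc22a26 shared 74.1% to 74.5% of its bases with the other 4 genes. The first 90 coding bases are shown because they let the 4 closest genes be compared by eye. Capitals mark the 14 bases that are not the same in all 4 genes.
Slc22a27: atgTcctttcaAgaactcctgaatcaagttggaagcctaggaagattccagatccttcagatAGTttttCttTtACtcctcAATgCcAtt
Slc22a28: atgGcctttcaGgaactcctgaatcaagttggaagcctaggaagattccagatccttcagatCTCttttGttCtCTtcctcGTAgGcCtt
Slc22a29: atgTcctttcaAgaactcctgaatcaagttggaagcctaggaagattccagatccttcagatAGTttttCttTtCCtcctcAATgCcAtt
Slc22a30: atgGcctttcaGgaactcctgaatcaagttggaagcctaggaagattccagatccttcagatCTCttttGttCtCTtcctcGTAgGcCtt
In this stretch Slc22a28 and Slc22a30 were the same, and so were Slc22a27 and Slc22a29 but for a single base. The libraries were read as pairs of 125 bases, and reads with several places in the genome were not counted by the authors. Of all 125-base windows of the Slc22a28 transcript, 32.1% also occurred in transcripts of Slc22a30, and 28.3% of the Slc22a30 windows occurred in Slc22a28. For Slc22a27 and Slc22a29 these shares were 3.8% and 3.5%, and for Slc22a26, Slc22a3, Slc22a7 and Slc22a23 they were 0.0%. Of the Slc22a5 windows, 9.9% also occurred in transcripts annotated to its neighbour Slc22a21. Levels of Slc22a28 and Slc22a30, and to a lesser degree of Slc22a27 and Slc22a29, are therefore uncertain to the extent that reads could be lost or exchanged between the partners. The mm9 reference is of a C57BL/6 mouse, and the effect of sequence differences in C3 mice on read placement was not tested.

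The stretches just before the annotated starts are shown for 4 of the clustered genes because their transcripts moved in opposite directions between the sexes, as given below. Entries for 8 members were found in the RefSeq promoter table (GRCm38.p6), with none for Slc22a7, and the mm9 windows of 6 of these 8 had the same 300 bases, from 250 before to 50 after the start. The sequences of Slc22a26 (chr19:7877158-7877307), Slc22a27 (chr19:8040518-8040667), Slc22a28 (chr19:8206473-8206622) and Slc22a30 (chr19:8479596-8479745) are the 150 bases before the start in mm9, on the minus strand. In Slc22a26, capitals mark matches to searched motifs. In Slc22a28 and Slc22a30, they mark mismatches between these genes.
Slc22a26: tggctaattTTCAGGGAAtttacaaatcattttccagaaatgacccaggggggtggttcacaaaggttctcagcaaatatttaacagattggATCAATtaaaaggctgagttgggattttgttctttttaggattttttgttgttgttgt
Slc22a27: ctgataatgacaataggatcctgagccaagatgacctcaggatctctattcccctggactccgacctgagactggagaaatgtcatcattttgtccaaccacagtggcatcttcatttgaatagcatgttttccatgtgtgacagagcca
Slc22a28: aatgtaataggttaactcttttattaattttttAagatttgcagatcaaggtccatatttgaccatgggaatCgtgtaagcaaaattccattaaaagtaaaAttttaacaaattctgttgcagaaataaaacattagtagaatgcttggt
Slc22a30: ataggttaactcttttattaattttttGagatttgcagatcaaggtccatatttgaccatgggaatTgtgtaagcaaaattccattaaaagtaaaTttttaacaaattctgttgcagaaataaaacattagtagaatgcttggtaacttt
The 300-base windows of Slc22a28 and Slc22a30 were identical at 94.1% of aligned positions, with 6 mismatches and an offset of their starts. Those of Slc22a26 and Slc22a27 were no more alike than other pairs, at 44.5%. The window of Slc22a29, whose transcript was higher in females, was at 64.8% with Slc22a30, 61.6% with Slc22a28 and 44.0% with Slc22a27. Its mm9 window was not the same as that in the RefSeq promoter table. The windows were searched on both strands for 4 motifs: TATAAA for the core promoter element of that name, TTCNNNGAA for STAT5, CAAAGTCCA for HNF4A and ATCAAT for the HNF6 core. Matches were found in Slc22a26 alone among the 8 members. Its STAT5 match lay 141 to 133 bases before the start and its HNF6 core match 58 to 53 bases before the start, and they did not overlap. Of 32851 RefSeq windows of the same length, 8.3% held TTCNNNGAA and 7.5% held ATCAAT, against 13.6% for TATAAA and 0.5% for CAAAGTCCA. A match describes letters in the reference and does not show that a factor binds there.

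Total counts were between 27370921 and 46835745 per library, and 3 counts, the least taken as detected, were worth 0.0641 to 0.110 CPM, the count scaled to library size. Total counts rose from pool 2 to pool 1 to pool 3, and pool was a term of every model. Hepatocyte markers were abundant in every liver, with 6 of 7 present in the tables. Their summed level was 105000 to 136000 TPM in females and 78500 to 104000 in males of B6, and 145000 to 174000 and 108000 to 135000 TPM in C3, while 0 of the 6 were called between the sexes in edgeR and their median fitted log2 difference was -0.18 in B6 and -0.24 in C3. Kidney markers, relevant because many Slc22 genes are expressed in kidney, summed to at most 0.0591 TPM, with Aqp2 and Kap at 0 in all libraries. Pancreatic acinar markers reached at most 0.0676 TPM and adipocyte markers at most 0.157 TPM. Markers of Kupffer cells (5 of 5 in the tables) summed to 449 to 564 TPM in females and 261 to 387 in males of B6, and to 300 to 428 and 189 to 283 TPM in C3. Those of sinusoidal endothelium (5 of 5) summed to 237 to 289 and 183 to 207 TPM in B6 and to 207 to 257 and 170 to 205 TPM in C3. Those of stellate cells (4 of 4) summed to 268 to 347 and 205 to 251 TPM in B6 and to 212 to 261 and 161 to 205 TPM in C3. Bile duct markers summed to 3.29 to 6.07 TPM and lymphocyte markers to 0.289 to 3.58 TPM over all livers, and Alas2, the erythroid marker tested, set a sum of 17.4 to 35.2 TPM in females and 154 to 223 TPM in males. In edgeR, 1 of the 6 hepatocyte markers was called higher in C3 in each sex. Of the 5 Kupffer cell markers, 4 were called lower in C3 females and 2 in C3 males. In each strain, 1 of these was called higher in females. Endothelium, bile duct and erythroid lists held 1 called marker each in at least 1 comparison. Of all genes, 6.34% and 6.90% were called between the sexes in B6 and C3, and 9.40% and 9.64% between the strains in females and males. The part of these markers in the differences below was not tested, and in whole liver RNA fewer cells of a type and less RNA per cell cannot be told apart.

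Slc22a30 and Slc22a26 were the most abundant members, and the make-up of the family differed between the sexes. Slc22a26 made up a median of 44.5% of the summed TPM of the 9 genes in B6 females and 46.9% in C3 females, against 0.217% in B6 males and 0.113% in C3 males. Slc22a30 made up 33.4% and 24.0% in B6 and C3 females and 62.6% and 57.1% in the males. Slc22a7 made up 17.7% in B6 and 26.0% in C3 males against 5.32% and 9.49% in females. The summed level was 349 to 537 TPM in B6 females and 452 to 562 in C3 females, and 213 to 387 in B6 males and 263 to 417 in C3 males.

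**Figure D1:**
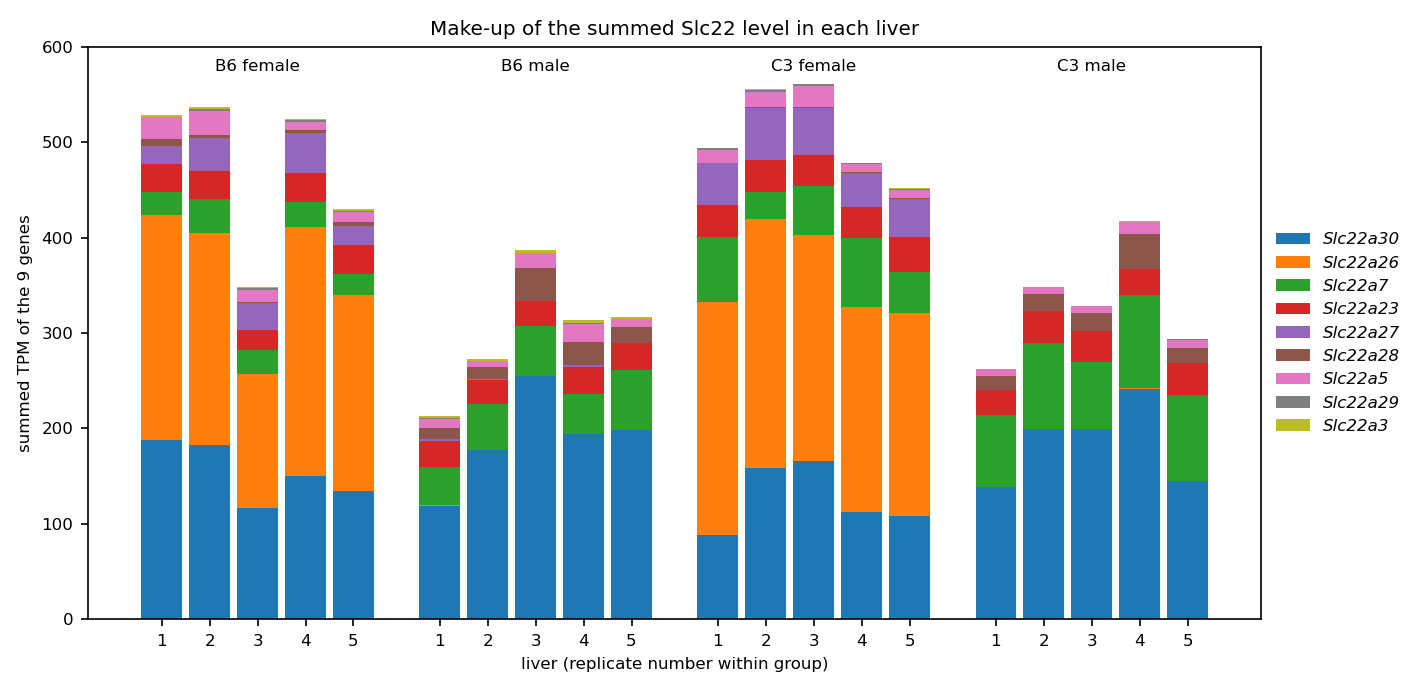
Summed TPM of the 9 Slc22 genes in each of the 20 livers, with livers on the horizontal axis by group and replicate number and each color standing for 1 gene. The Slc22a26 segment is wide in the 10 female livers and is at most a thin line in the 10 male livers, where Slc22a30 and Slc22a7 make up most of each bar.

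Genes with an adjusted p below 0.001 in edgeR's quasi-likelihood test and a log2 fold change of more than 0.5 up or down were called. Between females and males, 3 of the 9 members were called in B6, where 6.34% of all genes tested were called, and 5 of 9 in C3, where 6.90% were. Between C3 and B6, 3 members were called in females (9.40% of all genes) and 1 in males (9.64%). The TPM ranges of the groups did not overlap for 4 members between B6 females and males (12.4% of all genes), 4 between those of C3 (14.6%), 2 between females of the strains (12.9%) and 2 between males (15.3%). For the sex-by-strain interaction, which tests whether the female-to-male difference depended on the strain, 0 of 9 members and 0.401% of all genes were called in edgeR. At an unadjusted p under 0.05 the interaction was seen for 3 of the 9 members, Slc22a27, Slc22a28 and Slc22a30, and for 16.1% of all genes tested. The interaction count was 2 under DESeq2, for Slc22a27 and Slc22a28, where 181 of all genes were called. Within each of the 3 pools, the plain difference of mean log2 CPM was taken, on as few as 1 liver of a group. Its sign was the same in every pool for 8 of 9 members between B6 females and males and for 7 in C3. Between the strains it was the same for 6 members in females and 9 in males.

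**Figure D2:**
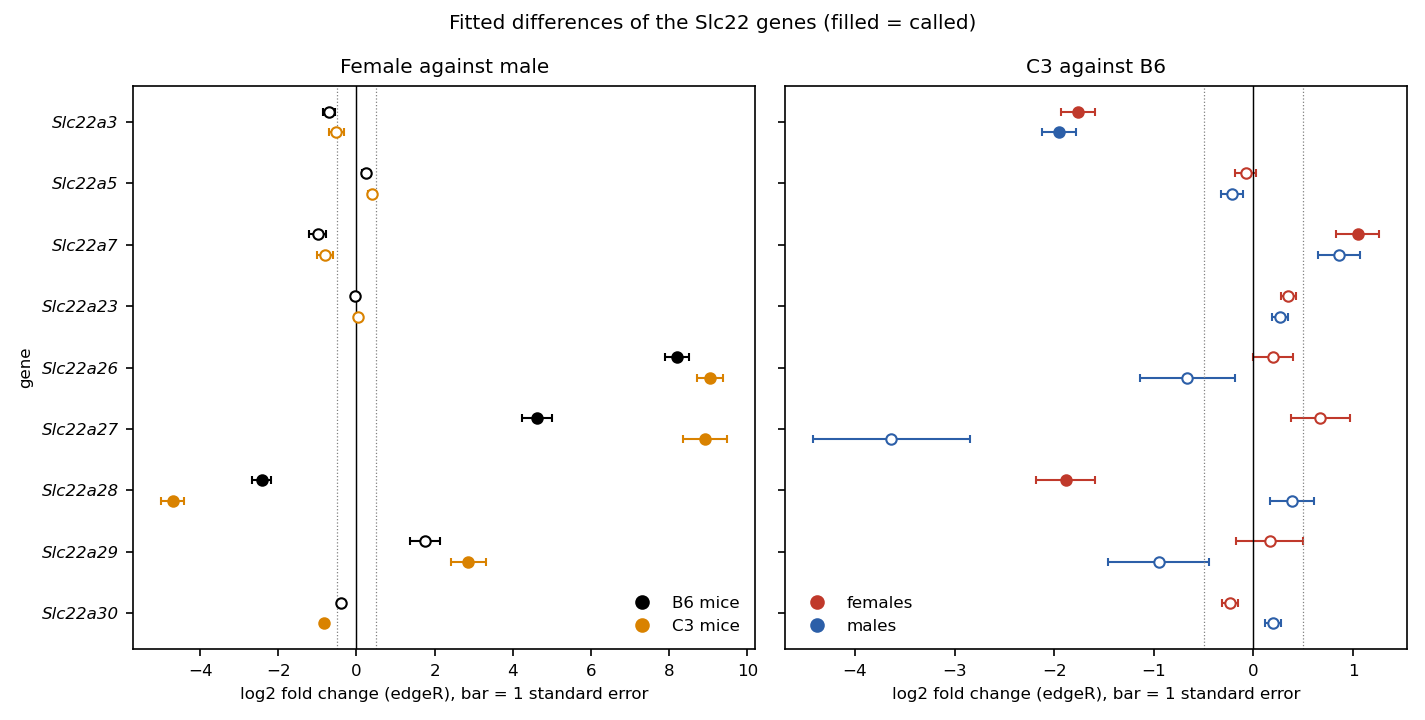
Fitted log2 fold changes of the 9 genes (horizontal axis, bars of 1 standard error) for female against male in B6 and C3 mice, left, and for C3 against B6 in females and males, right, from edgeR over 20 livers. Filled points were called, and dotted lines mark 0.5 in either direction. Slc22a26 and Slc22a27 lie far to the right and Slc22a28 to the left between the sexes, and Slc22a3 lies to the left between the strains.

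Slc22a26, the first gene of the chromosome 19 cluster, was abundant in female livers and low in male livers. Its level in B6 females was 236, 223, 141, 261 and 205 TPM, and in C3 females 244, 261, 238, 214 and 212 TPM. In B6 males it was 1.47, 0.831, 0.248, 0.681 and 0.245 TPM, and in C3 males 0.897, 0.394, 0.201, 0.277 and 0.385 TPM. Every female liver was above every male liver, and B6 female liver 3 was the lowest of the females. In counts, the males held 8 to 45 per library in B6 and 7 to 24 in C3, against 3896 to 10830 in females. Slc22a26 was 293-fold higher in females than in males in B6 (log2 fold change 8.19 ± 0.31 SE, adjusted p = 5.50e-13, edgeR) and 532-fold higher in C3 (9.05 ± 0.33, adjusted p = 4.12e-13). The strains did not differ beyond the spread, at 0.20 ± 0.20 in females (adjusted p = 0.497) and -0.66 ± 0.47 in males (adjusted p = 0.296), and the interaction was 0.86 ± 0.51 (adjusted p = 0.443).

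Slc22a27 was also higher in females and was at few counts in males, above all in C3. The female values were 18.8, 35.1, 28.6, 41.8 and 19.7 TPM in B6 and 44.2, 54.1, 48.9, 35.5 and 39.2 TPM in C3. The male values were 2.15, 0.746, 0.185, 2.12 and 0.429 TPM in B6 and 0.209, 0.0786, 0.0535, 0.0860 and 0 TPM in C3. No male reached the lowest female, and among males the strains overlapped only through B6 male liver 3 and C3 male liver 1. The C3 male values rest on 6, 3, 2, 4 and 0 counts, and the B6 male values on 71, 26, 8, 87 and 15. Slc22a27 was 24.6-fold higher in B6 females than in males (4.62 ± 0.39 SE, adjusted p = 5.52e-08, edgeR), and the fitted log2 difference in C3 was 8.92 ± 0.56 (adjusted p = 9.83e-10). The C3 against B6 difference in males, -3.63 ± 0.79, was not called (adjusted p = 0.00145). It was called in DESeq2 (adjusted p = 2.84e-07), without B6 male liver 3 (-3.92, adjusted p = 0.000173) and without B6 female liver 4 (-3.62, adjusted p = 0.000566). In females the strains differed by 0.67 ± 0.30 (adjusted p = 0.0937), and the interaction of 4.30 ± 0.84 had an adjusted p of 0.00635.

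Slc22a29, the near-identical partner of Slc22a27, had the same direction at a much lower level. It was at 0.949, 2.13, 2.40, 1.68 and 1.42 TPM in B6 females and 0.562, 0.363, 0.158, 1.17 and 0.167 TPM in B6 males, and B6 male liver 4 lay above B6 female liver 1. In C3 it was at 2.14, 2.93, 2.17, 0.679 and 1.55 TPM in females and 0.271, 0.230, 0.208, 0.251 and 0.191 TPM in males, without overlap. The difference was called in C3, at 7.26-fold (2.86 ± 0.44 SE, adjusted p = 8.78e-05, edgeR), on 6 to 12 counts per male library. In B6 it was 1.75 ± 0.39 and not called (adjusted p = 0.00205), although it was called in DESeq2 (1.79, adjusted p = 6.1e-05), in limma on log2(TPM + 0.1) (1.84, adjusted p = 0.000895), without B6 female liver 1 (2.01, adjusted p = 0.000538) or without B6 male liver 4 (2.34, adjusted p = 0.000171). Relative to Slc22a27, Slc22a29 had 4.12% to 8.61% of the counts in B6 females, 1.96% to 5.55% in C3 females, 26.8% to 87.5% in B6 males and at least 133% in the C3 males with a count of Slc22a27. When the counts of both genes were summed before the fit, an alternative chosen after the data were seen, the female-to-male difference was 4.18 in B6 and 7.06 in C3.

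**Figure D3:**
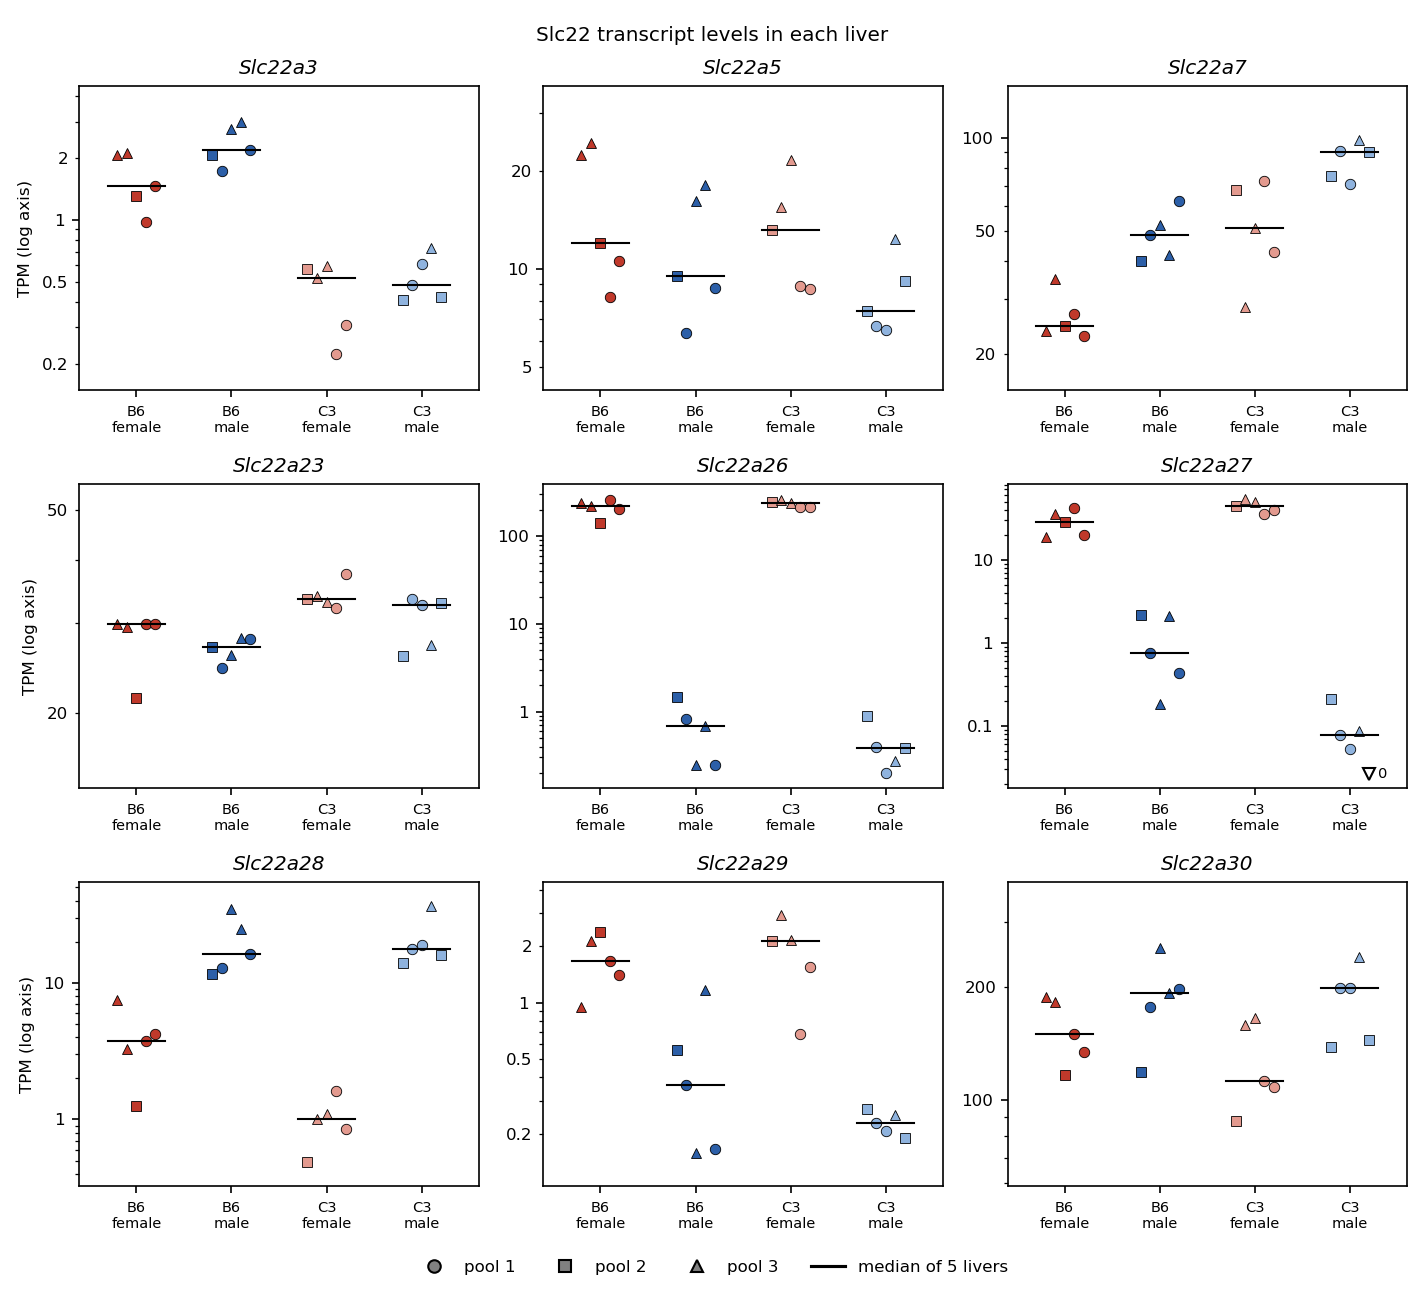
TPM on a log axis for each of the 9 genes in every liver, by group, with the pool as the symbol shape and a line at the median of 5 livers. The open triangle marks the C3 male liver with 0 counts of Slc22a27. Slc22a26, Slc22a27 and Slc22a29 are lower in males, Slc22a28 is lower in females, Slc22a3 is lower in C3, and Slc22a5 is highest in the pool 3 livers.

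Slc22a28 showed the opposite pattern, with higher levels in males of both strains and the lowest levels in C3 females. The male values were 11.6, 12.7, 34.4, 24.7 and 16.2 TPM in B6 and 13.9, 17.7, 18.8, 36.3 and 15.9 TPM in C3. The female values were 7.54, 3.29, 1.26, 3.73 and 4.22 TPM in B6 and 0.486, 1.01, 1.09, 1.62 and 0.855 TPM in C3. Every male was above every female, and among females the strains overlapped through the lowest B6 liver alone. Slc22a28 was 5.38-fold lower in B6 females than in males (-2.43 ± 0.24 SE, adjusted p = 4.61e-07, edgeR) and 26.0-fold lower in C3 (-4.70 ± 0.29, adjusted p = 6.81e-10). Females of C3 were 3.69-fold below those of B6 (-1.88 ± 0.30, adjusted p = 6.69e-05), and this call was lost without the pool term (adjusted p = 0.00319). In males the strain difference was 0.39 ± 0.22 (adjusted p = 0.189). The interaction of -2.27 ± 0.37 had an adjusted p of 0.00147, and it was called without B6 female liver 2 (-2.47, adjusted p = 0.000554) or without C3 female liver 4 (-2.62, adjusted p = 0.000262).

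Slc22a30, the partner of Slc22a28, was abundant in every liver, and its differences were small. It was at 188, 183, 116, 150 and 134 TPM in B6 females and 118, 177, 255, 194 and 198 TPM in B6 males. In C3 it was at 88.0, 158, 165, 112 and 108 TPM in females and 138, 199, 199, 242 and 145 TPM in males. The groups overlapped in every comparison, and the pool 3 livers, at 158 to 255 TPM, were above the pool 2 livers, at 88.0 to 145 TPM. In C3, Slc22a30 was 1.77-fold lower in female livers (-0.83 ± 0.08 SE, adjusted p = 5.97e-07, edgeR), and the differences within pools 1, 2 and 3 were -0.93, -0.79 and -0.74. This call was lost without the pool term (-0.67, adjusted p = 0.0273). In B6 the difference of -0.39 ± 0.08 was below the fold limit (adjusted p = 0.00116), and the interaction was -0.43 ± 0.12 (adjusted p = 0.0503).

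Because the transcripts of Slc22a28 and Slc22a30 share windows of a read's length, their counts were also set against each other. Slc22a28 had 1.09% to 4.02% of the counts of Slc22a30 in B6 females and 0.554% to 1.44% in C3 females, against 7.23% to 13.6% in B6 males and 8.93% to 15.1% in C3 males. The ratio was higher in every male than in every female, so the counts of the partners did not move in proportion. A sum of both genes is mostly Slc22a30, which held most of the counts in every liver. Its fitted sex difference was -0.50 in B6, not past the fold limit (adjusted p = 0.000110, edgeR), and -0.97 in C3 (adjusted p = 5.79e-08).

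**Figure D4:**
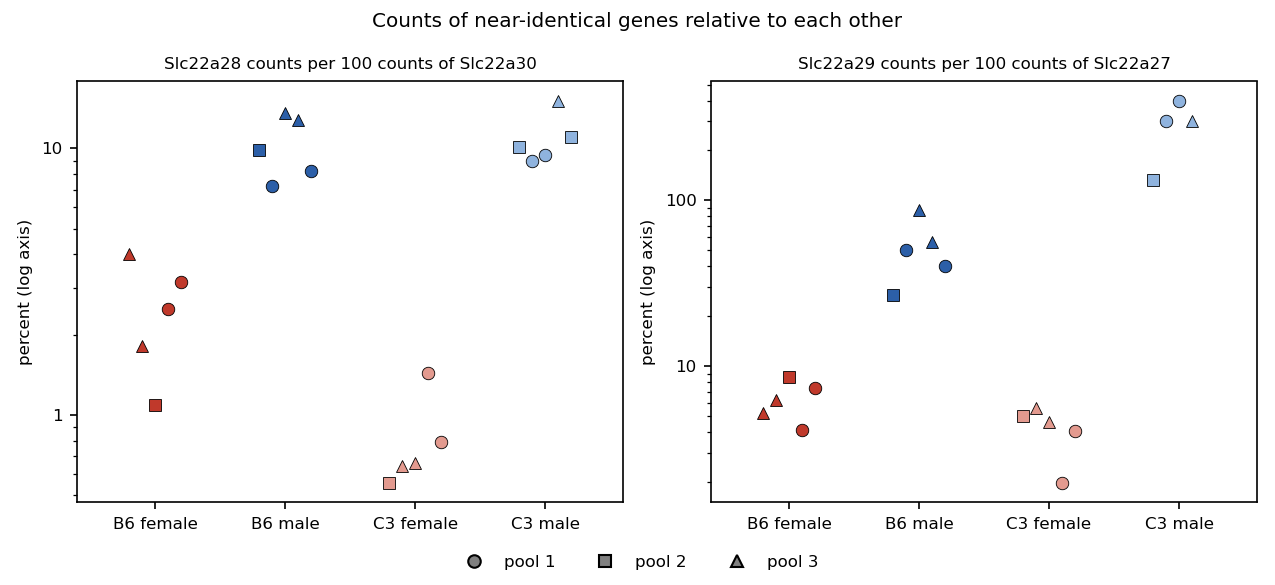
Counts of Slc22a28 as a percent of those of Slc22a30 (left) and of Slc22a29 as a percent of those of Slc22a27 (right), on log axes, for each liver by group, with pools as symbol shapes. The C3 male liver with 0 counts of Slc22a27 has no ratio and is not drawn. Male livers lie above female livers in both panels.

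Slc22a7, the OAT2 gene at chr17:46569134-46575426, was higher in males and in C3 mice in its means, and most of these differences missed the call. Its level was 23.7, 34.9, 24.6, 26.9 and 22.9 TPM in female and 39.9, 48.3, 52.3, 41.8 and 62.6 TPM in male B6 livers. In C3 it was 67.7, 28.3, 51.2, 72.7 and 42.9 TPM in female and 75.5, 90.7, 70.8, 98.2 and 90.2 TPM in male livers. The B6 females lay below the B6 males, and the B6 males below the C3 males, while the C3 females spread across the other groups. C3 females were 2.06-fold above B6 females (1.05 ± 0.21 SE, adjusted p = 0.000862, edgeR). This call was lost without the pool term (adjusted p = 0.00102), with upper-quartile scaling (0.00109), on the 2 groups alone (0.0112) and in limma on log2(TPM + 1) (0.00216) and log2(TPM + 0.1) (0.00211). It was kept when B6 female liver 2, B6 male liver 5, C3 female liver 2 or C3 female liver 5 was left out and lost without any other liver, with values between 0.88 and 1.23. The other differences were not called. C3 males were at 0.86 ± 0.21 above B6 males on the log2 scale (adjusted p = 0.00406), and females against males were at -0.99 ± 0.21 in B6 (adjusted p = 0.00152) and -0.80 ± 0.21 in C3 (adjusted p = 0.00595). In B6 the sex difference was called without B6 female liver 2 (-1.13, adjusted p = 0.000907), C3 female liver 2 (-0.998, adjusted p = 0.000218) or C3 female liver 4 (-1.01, adjusted p = 0.000804), and that between males of the strains without C3 female liver 2 (0.88, adjusted p = 0.000553). In DESeq2 both, and the sex difference in C3, were called.

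Slc22a3, the OCT3 gene at chr17:12612840-12700570, was lower in C3 than in B6 in both sexes at a low level throughout. In B6 it was at 2.08, 2.12, 1.30, 0.976 and 1.45 TPM in females and 2.07, 1.73, 2.77, 2.98 and 2.18 TPM in males. In C3 it was at 0.577, 0.524, 0.596, 0.223 and 0.308 TPM in females and 0.407, 0.483, 0.608, 0.727 and 0.421 TPM in males. No C3 liver reached the lowest B6 liver. Slc22a3 was 3.40-fold lower in C3 females (-1.76 ± 0.17 SE, adjusted p = 1.98e-07, edgeR) and 3.87-fold lower in C3 males (-1.95 ± 0.17, adjusted p = 3.42e-08). Between the sexes it was at -0.70 ± 0.15 in B6 (adjusted p = 0.00136) and -0.51 ± 0.19 in C3 (adjusted p = 0.0414), and neither was called. The B6 sex difference was called in DESeq2 (-0.71, adjusted p = 1.66e-05), without C3 female liver 1 (-0.70, adjusted p = 0.000446) or without C3 female liver 4 (-0.70, adjusted p = 0.000896). The tables hold 1 other locus that overlaps the span of Slc22a3, and the counting used strand.

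Slc22a5, the carnitine importer at chr11:53678044-53705205, was not called in any comparison and varied with the sequencing pool. The B6 values were 22.4, 24.2, 12.0, 8.19 and 10.6 TPM in females and 9.55, 6.38, 16.1, 18.1 and 8.75 TPM in males. The C3 values were 13.2, 15.5, 21.6, 8.85 and 8.67 TPM in females and 7.45, 6.66, 6.50, 12.4 and 9.21 TPM in males. The 7 livers of pool 3 were at 12.4 to 24.3 TPM, the 8 of pool 1 at 6.38 to 10.6 and the 5 of pool 2 at 7.45 to 13.2. The pools were balanced over the groups only in part. With pool in the model, females were at 0.25 ± 0.10 relative to males in B6 (adjusted p = 0.0666, edgeR) and 0.39 ± 0.11 in C3 (adjusted p = 0.00820). The strains differed by -0.08 ± 0.10 in females (adjusted p = 0.615) and -0.21 ± 0.11 in males (adjusted p = 0.135).

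Slc22a23, the member without an established substrate at chr13:34271027-34437051, was the most even of the 9. In B6 it was at 29.9, 29.6, 21.4, 29.9 and 29.9 TPM in females and 26.9, 24.5, 26.0, 28.1 and 28.0 TPM in males. In C3 it was at 33.5, 33.9, 33.0, 32.2 and 37.5 TPM in females and 25.9, 33.5, 32.5, 27.3 and 32.9 TPM in males. The C3 females lay above the B6 females without overlap, at 0.35 ± 0.08 SE (adjusted p = 0.00145, edgeR), which is below the fold limit. The sexes were at -0.05 ± 0.08 in B6 (adjusted p = 0.645) and 0.03 ± 0.08 in C3 (adjusted p = 0.750).

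The order of the mean levels of the 4 groups differed between the genes. For Slc22a26, Slc22a27 and Slc22a29 it ran from C3 males through B6 males and B6 females to C3 females, and for Slc22a28 from C3 females through B6 females and B6 males to C3 males. For these 4 genes, C3 thus held both ends of the order. Of neighbours in this order that were of one sex, the strains were called different for Slc22a28 in females alone, and not for the other 3 genes in either sex or for Slc22a28 in males. The order was the same on CPM and on TPM for 7 of the 9 members, and differed for Slc22a23 and Slc22a30.

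Other listed genes of the family showed no called difference in edgeR. The tables hold 17 further Slc22 genes, of which 16 were on the list chosen for comparison. Of these 16, 6 had enough counts to be tested and 0 were called in any of the 5 comparisons in edgeR. An unadjusted p under 0.05, which 44.4% of all genes tested had between the sexes in B6, 49.0% in C3, 41.9% and 44.3% between the strains in females and males and 16.1% in the interaction, was found for 4, 3, 1, 3 and 1 of the 6. DESeq2 called Slc22a15 in B6, where edgeR gave -0.56 (adjusted p = 0.00475). The other 10 held at most 7 counts in a library, among them Slc22a6, Slc22a8 and Slc22a12, organic anion and urate transporters of the kidney, and Slc22a19, a neighbour of the chromosome 19 cluster that had no count in any library. Of 6 listed genes next to Slc22a3, 5 were tested and 0 called in any comparison in edgeR. An unadjusted p under 0.05 was found for 1 of the 5 between the strains in females and 3 in males, for 3 and 1 between the sexes in B6 and C3 and for 0 in the interaction. DESeq2 called Mas1 alone, lower in B6 females than males and in C3 males than B6 males. In edgeR these differences were -2.36 ± 0.48 SE (adjusted p = 0.00111) and -2.23 ± 0.49 (adjusted p = 0.00159). Mas1 had at most 6 counts per library in B6 females, 24 in B6 males and 11 in C3 males. Mas1, like Slc22a15, was named after its values were seen.

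Around the chromosome 19 cluster, 43 other loci lay within 500 kb and 29 were tested. Between the sexes, 2 of the 29 were called in B6 (6.34% of all genes tested) and 1 in C3 (6.90%), all higher in females. Between the strains, 1 was called in females (9.40%) and 1 in males (9.64%). An unadjusted p under 0.05 was found for 6 and 12 of the 29 between the sexes in B6 and C3. It was found for 6 and 11 between the strains in females and males and for 3 in the interaction, against the shares given above. Pla2g16, a phospholipase of adipose tissue and other cells, was 0.73 ± 0.11 SE higher in females in B6 (adjusted p = 4.70e-05, edgeR) and 0.68 ± 0.11 in C3 (adjusted p = 0.000123). Chrm1, a muscarinic acetylcholine receptor, was called in B6 at 2.72 ± 0.44 (adjusted p = 0.000129) on at most 21 counts per B6 library. Over the 29 loci the median log2 sex difference was -0.002 in B6 and -0.036 in C3. As to strain, Ttc9c was lower in C3 females (-0.54 ± 0.09, adjusted p = 0.000178) and Chrm1 higher in C3 males (2.40 ± 0.46, adjusted p = 0.000506).

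The 9 listed genes of carnitine synthesis, transport and acyl transfer, which act on the substrate of Slc22a5, showed few called differences. All 9 were tested, and in edgeR 0 were called between the sexes or between the strains in females, where 5, 6 and 5 had an unadjusted p under 0.05, against the shares of all genes given above, and DESeq2 called 0, 0 and 2. Slc25a20, the carnitine-acylcarnitine carrier of the inner mitochondrial membrane, was called lower in C3 males (-0.51 ± 0.08 SE, adjusted p = 4.59e-05, edgeR), where DESeq2 called 3. Of 11 other carriers of organic anions, cations and urate, 3 were called for sex in each strain (6.34% of all genes tested in B6 and 6.90% in C3). For strain, 1 was called in females (9.40%) and 2 in males (9.64%). An unadjusted p under 0.05 was found for 10 of the 11 in each sex comparison. It was found for 9 and 8 between the strains in females and males and for 5 in the interaction. Abcg2, an exporter of urate and drugs, was lower in females, at 35.5 ± 4.75 TPM (SD, n = 5) against 115 ± 17.5 in B6 and 28.2 ± 2.97 against 92.2 ± 10.6 in C3, with fitted differences of -1.81 ± 0.08 SE (adjusted p = 6.85e-12) and -1.88 ± 0.08 (adjusted p = 5.71e-12). Slc16a7, a monocarboxylate transporter, was higher in females, by 0.93 ± 0.12 in B6 (adjusted p = 1.34e-05) and 1.00 ± 0.13 in C3 (adjusted p = 8.71e-06). Slc29a1, a nucleoside transporter, was called in B6 (0.51 ± 0.06, adjusted p = 2.46e-06), close to the fold limit and not in DESeq2, which called Slc17a4 (named after its values were seen) in its place, and Slc17a3, an organic anion and urate exporter, in C3 (-0.51 ± 0.07, adjusted p = 2.83e-05). Between the strains, Slc16a10, an aromatic amino acid transporter, was lower in C3 females (-0.68 ± 0.10, adjusted p = 4.21e-05). Slc16a1, a monocarboxylate transporter, and Slc17a1, a phosphate and urate transporter, were higher in C3 males, by 0.56 ± 0.06 (adjusted p = 1.05e-06) and 0.76 ± 0.08 (adjusted p = 3.60e-07).

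Likeness to other genes was measured as the root mean square difference of centred log2 CPM over the 20 livers, where 0 would be an identical pattern, and is given as a description with no test. Pool was not removed from these values. The measure depends on a gene's own spread, so it does not rank likeness between members. The SD over the livers was 4.46 for Slc22a26, 3.66 for Slc22a27, 1.98 for Slc22a28 and 1.32 for Slc22a29. It was 1.07 for Slc22a3, 0.754 for Slc22a7 and 0.427 for Slc22a30. The genes most like Slc22a26 were Gm4794 (0.655) and Cyp2b9 (0.994), a cytochrome P450 that was at 733 and 688 TPM on average in B6 and C3 females and 3.66 and 0.535 TPM in the males. Slc22a27 was most like Acot3 (1.36), an acyl-CoA thioesterase, followed by Slc22a26 (1.40). Slc22a28 was most like C6 (0.575), a complement component, and Cyp7b1 (0.711), an oxysterol hydroxylase, which was at 414 and 553 TPM in B6 and C3 males and 93.5 and 59.6 TPM in the females. Slc22a29 was most like Slco1a4 (0.532), a carrier of organic anions into hepatocytes, and Grid1 (0.580), a glutamate receptor subunit. Slc22a30 was most like Sec11c (0.170), a signal peptidase subunit, and Rbbp4 (0.208), a histone-binding protein. Slc22a3 was most like Cfhr2 (0.300), a complement factor H-related gene, and Sord (0.416), the sorbitol dehydrogenase gene, which was at 1268 and 1439 TPM in B6 females and males and 424 and 549 TPM in C3 females and males. Slc22a7 was most like Pnpla7 (0.394), a lysophospholipase, and Ttbk1 (0.395), a tubulin kinase listed at no more than 0.251 TPM.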

How the data were processed

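Strain, sex and pool of each of the 20 livers were taken from the sample labels. Raw counts per gene were deposited by the authors, who made them from stranded total RNA libraries with cutadapt 1.9.1, STAR 2.5.1b on mm9 and featureCounts of Subread 1.5.0-p1 on RefSeq genes, with multimapping reads not counted. TPM values deposited by the authors divide each count by a gene length whose definition is not given in the sources used here. Headers of the symbol and identifier columns are exchanged in the tables.

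The count models used edgeR 4.0.16 in R 4.3.3, with genes kept by filterByExpr, TMM scaling, and quasi-likelihood tests with terms for group and pool across the 20 libraries. The Benjamini-Hochberg adjustment ran over 13704 genes, and genes at an adjusted p under 0.001 with a log2 fold change over 0.5 were called. All tests were two-sided. Levels between genes were compared on TPM. Sequences were read from the mm9 genome, GENCODE vM1 transcripts and RefSeq promoters and aligned with Biopython 1.88. Each 3-count floor covers counting error only, since reads without molecular identifiers are not independent molecules. The members, gene lists, markers and motifs were chosen with earlier results of these data known. Genes were named from those lists if called, with the 2 most alike genes of each called member, and some listed genes are not reported here. Alternatives with DESeq2 1.42.0, limma 3.58.1, other scalings, filters, pool and block terms and left-out livers were run, and the fits were tested on simulated data.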

Additional observations from a re-analysis of the deposited data

Results flagged for a closer look

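Among 36 sets of 5 livers, 1 for each gene and group, 3 held a liver that stood apart by Dixon's criterion, and chance gives about 1 in 20. For Slc22a23, B6 female liver 3 was at 21.4 TPM and the next lowest of its group at 29.6, and it was the only pool 2 liver of its group. For Slc22a26, C3 male liver 1 was at 0.897 TPM and the next highest at 0.394, on 24 and 14 counts. For Slc22a28, C3 male liver 4 was at 36.3 TPM and the next highest at 18.8. It was the only pool 3 liver of its group, and the pool 3 livers of B6 males were also the highest of theirs, at 34.4 and 24.7 TPM. The part of the pool was not tested.

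In edgeR's interaction test, Slc22a27 and Slc22a28 had an adjusted p under 0.05, and neither was called at the limit of 0.001. At the limit of 0.05, with a log2 difference over 0.5, 302 of the 13704 genes tested passed, these 2 among them. For Slc22a27 the female-to-male difference in C3 exceeded that in B6 by 4.30 on the log2 scale (adjusted p = 0.00635). Slc22a28 was lower in females, with a log2 difference of -4.70 in C3 and -2.43 in B6. Its interaction was -2.27 (adjusted p = 0.00147), so the excess in males was larger in C3. Over the other settings, left-out livers aside, the Slc22a27 value ranged from 1.54, in limma on log2(TPM + 1), to 4.50, with adjusted p between 2.61e-05 and 0.0194. For Slc22a28 the adjusted p ranged from 1.57e-07 to 0.127, and the latter was without the pool term, so the difference between the strains was not past 0.05 there. The Slc22a28 value was -0.47 when its counts were summed with those of Slc22a30, which make up most of that sum, and -2.28 at the other end.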

How the results depend on the processing

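Over the 9 genes and 5 comparisons, 436 of 474 values under other settings kept their direction and their side of the threshold, 25 gained a call, 10 lost one and 3 changed sign. The 474 include the fit on summed counts, which was chosen after the data were seen. In that fit, Slc22a27 and Slc22a28 stand for the sums with their partners. The number of members called between the sexes in B6 was 6 with DESeq2 and 6 at an adjusted p under 0.05, against 3. Between the strains in males it was 3 with DESeq2 and at an adjusted p under 0.05, and 2 with no filter, no pool term, the compared groups alone or limma on log2(TPM + 0.1), against 1. Between the strains in females it was 1 with no pool term, against 3. It was also lower, through loss of the Slc22a7 call, with upper-quartile scaling, a replicate block, the compared groups alone and both limma fits. Smaller shifts of the other counts are not all listed. For the interaction it was 2 with DESeq2 and at an adjusted p under 0.05, and 1 with no filter, against 0. Of all genes, 421, 482 and 815 were called with no pool term between the sexes in B6 and C3 and between the strains in females, and 20 for the interaction. The compared groups alone gave 625 between the sexes in C3, and DESeq2 gave 181 for the interaction. At an adjusted p under 0.05, the counts were 1753, 2189, 2143, 2327 and 302 in the order of the comparisons. The Slc22a23 sex difference in B6 of -0.05 became 0.0165 with upper-quartile scaling, 0.0628 in limma on log2(TPM + 1) and 0.0645 on log2(TPM + 0.1). The cause was not tested.

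Leaving out 1 liver at a time kept 866 of 900 values. The member counts ranged from 3 to 5 and from 5 to 5 between the sexes in B6 and C3, from 2 to 3 and from 1 to 2 between the strains in females and males, and from 0 to 1 for the interaction. The genes called ranged from 696 to 902, 662 to 1110, 1152 to 1284, 1108 to 1372 and 32 to 55. Signs changed for values near 0: Slc22a23 between the sexes ranged from -0.1025 to 0.0128 in B6 and -0.0151 to 0.081 in C3, Slc22a3 in the interaction from -0.0093 to 0.3142, and between the strains in females Slc22a26 from -0.0035 to 0.3198, Slc22a29 from -0.0933 to 0.3376 and Slc22a5 from -0.132 to 0.0134. The deviations of same-numbered livers had mean correlations of -0.24 to 0.218 over the comparisons, with single values from -0.463 to 0.631. With pool removed, the means were -0.0132 to 0.0997. A replicate block gave 1 member for the interaction, against 0, and ended the Slc22a7 call between the strains in females.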

Other observations

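In B6 males, livers 3 and 5 were the lowest for each of the 3 genes that were higher in females, at 0.248 and 0.245 TPM for Slc22a26, 0.185 and 0.429 TPM for Slc22a27 and 0.158 and 0.167 TPM for Slc22a29. Livers 1 and 4 had the highest Slc22a27 (2.15 and 2.12 TPM) and Slc22a29 (0.562 and 1.17 TPM). Liver 3 also had the highest Slc22a28 (34.4 TPM) and Slc22a30 (255 TPM) of the group. These are values of 5 livers from 3 pools, noticed after the data were seen, and no relation was tested.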
